A study of Homo sapiens with 42 samples.

Results

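The R161W form of RPL3L was compared with wild-type RPL3L in AC16 cells, an established human cell line derived from ventricular heart tissue and labelled cardiomyocyte-like. The comparison used 6 of the 42 libraries of the series: 3 labelled R161W and 3 labelled RPL3L-WT, out of 30 libraries of polyA-selected whole-cell RNA in 10 groups of 3. Genes with a mean of at least 1 TPM, the abundance of a transcript relative to a fixed total in each library, over the 6 libraries were examined, which left 14397 of 60606. Both groups carried a doxycycline-inducible hairpin against RPL3 (shRPL3) together with an RPL3L construct, and received doxycycline at 1 ug/ml. The same hairpin was present in 6 other variant groups (P291L, G27D, T189M, D308N, D308V and R343W) and, without an RPL3L construct, in the shRPL3 group, while the shScramble group carried a scrambled hairpin. Cells with the hairpin vector were selected with hygromycin B. Cells that also took up the lentiviral RPL3L construct were then isolated by flow sorting for BV421, and the deposited construct sequences place the fluorescent protein EBFP2 on that plasmid. The labels do not say how many lines were made per construct, or whether replicates came from separate cultures, so p-values measure only the spread between these libraries, which may be technical. A separate set of 12 libraries counted rRNA regions in nuclear RNA of 6 of the lines, with 2 libraries each.

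RPL3 (uL3) is a protein of the large ribosomal subunit that reaches toward the peptidyl transferase centre and is needed early in assembly of the 60S particle. Its paralog RPL3L is made in striated muscle, where it takes the place of RPL3 in part of the ribosomes. Altered RPL3L has been linked to childhood dilated cardiomyopathy, and a cell that lacks RPL3L function can raise RPL3. R161W replaces an arginine by a tryptophan.

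The reference coding sequences around the codon altered in R161W are shown because both paralogs carry an arginine there and because reads of one could be counted for the other. In GRCh38 (GENCODE 29) this codon of RPL3L lies at chr16:1950862-1950864 on the minus strand, in exon 4, within the gene at chr16:1943974-1957606. The codon at the same position of RPL3 lies at chr22:39316724-39316726 on the minus strand, also in exon 4. Each line gives 51 coding bases, 5′ to 3′, with that codon in capitals; they cross an exon junction, so the stretch is not continuous in the genome.
RPL3L: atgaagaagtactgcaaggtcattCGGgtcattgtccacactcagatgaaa
RPL3: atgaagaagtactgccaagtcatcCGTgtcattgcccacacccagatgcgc
The stretches were identical at 42 of the 51 bases. Over 1209 aligned coding bases the paralogs were 75.9% identical, and the longest run shared exactly was 26 bases. The coding sequences hold 407 codons in RPL3L and 403 in RPL3. The sequence of the constructs themselves was not analysed here.

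RPL3L-WT 1 and 2 and R161W 1 belonged to a technical kind of library different from RPL3L-WT 3 and R161W 2 and 3. On the levels of 449 pseudogenes, 6 of the 30 libraries (kind 2) stood apart from the other 24 (kind 1) along the first principal component. No label names a batch that matches this split. The fit therefore held the kind as a term, and each result was also taken within kind 1 (2 R161W libraries against 1 RPL3L-WT library) and within kind 2 (1 against 2). TPM keep no depth, so the depth of the whole-cell libraries is unknown; every library summed to 1000000. Fold changes are differences of log2(TPM + 1), which understate the change of genes with low TPM, and adjusted p-values are from limma with Benjamini-Hochberg (BH) adjustment over the 14397 genes.

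Cardiomyocyte markers were at or near 0 in these libraries. Of 14 markers, 11 stayed below 1 TPM in all 6 libraries and the atrial light chain gene MYL7 was listed at 0 in all 6; the sum of the list was 4.05 to 4.47 TPM in RPL3L-WT and 2.80 to 3.72 TPM in R161W. GATA4, a cardiac and mesodermal transcription factor, was the 1 marker with a mean of at least 1 TPM. All 12 fibroblast markers reached that mean, and their sum was 5106 to 5702 TPM in RPL3L-WT and 4936 to 5851 TPM in R161W. Of the endothelial, immune and epithelial markers, 1 of 6, 1 of 7 and 3 of 5 did so. In bulk RNA, fewer cells of a type and less RNA per cell cannot be told apart.

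RPL3 had the smallest p-value of all genes tested. It stood at 445, 439 and 673 TPM in RPL3L-WT 1 to 3 and at 1059, 1686 and 1570.1 TPM in R161W 1 to 3. Every R161W library was above every RPL3L-WT library although all 6 carried the RPL3 hairpin. The log2 fold change was 1.25 (SE 0.04, adjusted p = 2.46e-17), 1.27 within kind 1 and 1.26 within kind 2. Against the mean of the 6 other variants the difference was 1.13 (adjusted p = 1.20e-19). RPL3 in R161W was not distinguishable from its level in shScramble, whose libraries held 1565, 1534 and 1611 TPM (log2 difference 0.06, adjusted p = 0.225), and with no kind term the difference was -0.15 (adjusted p = 0.582). T189M, the variant with the next highest mean, held 780, 802 and 1246 TPM.

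The sequences of the RPL3L construct and the hairpin vector did not show a difference of this size. RPL3L held 2982, 2791 and 3798 TPM in RPL3L-WT and 2672, 3048 and 3373 TPM in R161W. These ranges overlap when the kinds are pooled, but within each kind every R161W library was below every RPL3L-WT library, at 0.845 of the RPL3L-WT level in kind 1 and 0.926 in kind 2. Its log2 difference was -0.18 (SE 1.08, adjusted p = 0.926) in the fit over all groups. That error was widened by 1 library of another group: shRPL3 3 held 121 TPM of RPL3L although its line carries no RPL3L construct, against at most 0.0353 TPM in shRPL3 1 and 2. Without shRPL3 3 the adjusted p for RPL3L was 0.0154 at the same difference. EBFP2 in R161W was 0.930 of its RPL3L-WT level within kind 1 and 0.902 within kind 2, and rtTA3, the doxycycline-dependent activator on the construct, was 0.901 and 0.979. The hairpin vector's hygromycin resistance sequence (HygR) was at 0.899 and 0.734 of RPL3L-WT, its repressor sequence (TetR) at 0.771 and 0.896, and its ribosome entry sequence (IRES) at 0.804 and 0.778. RPL3 made up 13.0, 13.6 and 15.1% of the RPL3 and RPL3L TPM together in RPL3L-WT and 28.4, 35.6 and 31.8% in R161W. Because the R161W line differs from RPL3L-WT both in the altered residue and in RPL3, the parts of these in any difference reported here cannot be told apart.

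**Figure D1:**
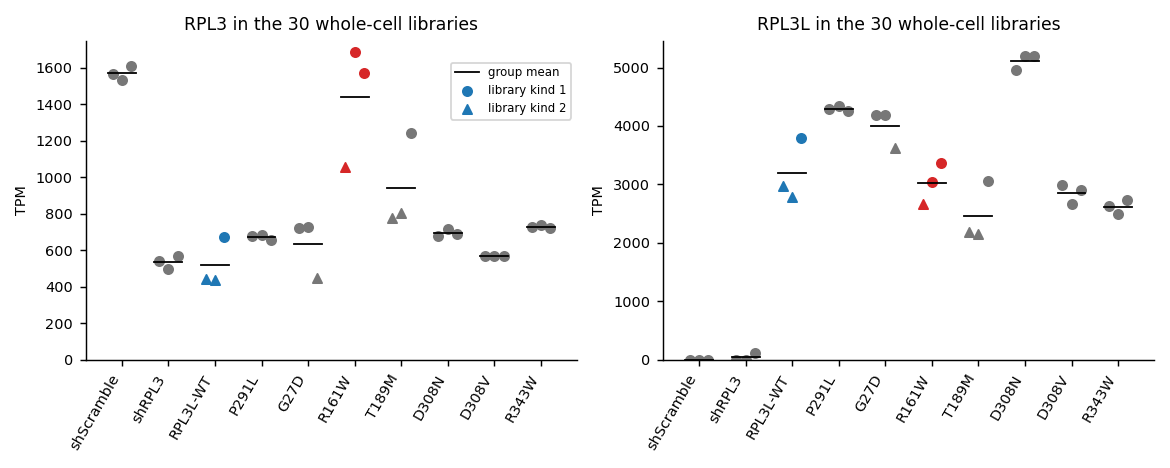
TPM of RPL3 (left) and RPL3L (right) in each of the 30 whole-cell libraries by group; circles are library kind 1, triangles kind 2, and the black line is the group mean. The R161W libraries hold 1059 to 1686 TPM of RPL3 against 439 to 673 TPM in RPL3L-WT, while RPL3L overlaps between these groups when kinds are pooled and is lower in R161W within each kind (0.845 and 0.926 of RPL3L-WT).

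Across the transcriptome, 2358 genes were higher in R161W than in RPL3L-WT (16.4% of those tested) and 1293 were lower (8.98%), with a median log2 difference of 0.06 over all genes. Of these, 2258 (15.7%) and 1245 (8.65%) also had every R161W library on the same side of every RPL3L-WT library within both kinds. The split between higher and lower depended on scaling: 64.6% of the calls were higher as deposited, and 42.7% after median-ratio scaling, where 1595 genes were higher (11.1%) and 2136 lower (14.8%). With no kind term 75.6% of the calls were higher, from 1853 genes higher (12.9%) and 598 lower (4.15%). The difference between the groups itself differed between kinds for 16 genes (0.111%). Within kind 1 alone 1021 genes were higher (7.09%) and 720 lower (5%), with a median of 0.03. Within kind 2 alone 1303 were higher (9.05%) and 651 lower (4.52%), with a median of 0.06.

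The largest differences named here follow a rule on adjusted p, level and library separation, with the first 15 genes each way. The checks that follow reuse these R161W libraries, and the rule already asked for separation within each kind, so agreement is partly built in. Each comparison within a kind rests on a lone library in 1 of the groups, whose spread is taken from the other groups. All 30 also passed the threshold the same way against the 6 other variants, where 26.9% of all genes were higher and 19.8% lower, and none of the 30 differed between kinds by the test of that difference. Within a single kind, all 15 higher genes passed the threshold in both, while 13 of the 15 lower genes passed within kind 1 and 14 within kind 2. The calls lost were FOXC2-AS1 (-0.66, adjusted p = 0.0818) and SCG5 (-0.78, adjusted p = 0.0577) within kind 1 and H2AC20 (-0.71, adjusted p = 0.168) within kind 2. In 78 genes (0.542% of those tested) the 3 R161W libraries lay above all 27 other whole-cell libraries, and in 61 (0.424%) below all of them. Of the 30 named genes, 5 were in the first set (MUSK, USP37, INHBE, ACTA2 and MANEA) and 3 in the second (HMGA2, CCND1 and INSYN2B). The variant and other features of the line that carries it cannot be told apart here.

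MUSK, the receptor tyrosine kinase that organises the neuromuscular junction, went from near absence to a low level. It held 0.118, 0.219 and 0.0982 TPM in RPL3L-WT and 4.25, 5.96 and 5.60 TPM in R161W, and no other whole-cell library exceeded 0.615 TPM. The log2 fold change was 2.38 (SE 0.15, adjusted p = 3.48e-11) and became 4.29 with a pseudocount of 0.1. MUSK reached the mean of 1 TPM over the 6 libraries only through R161W, so its inclusion already required a difference. The gene lies at chr9:110668771-110801620 on the plus strand. USP37, a deubiquitinase that acts in the cell cycle (chr2:218450251-218568361, minus strand), held 7.33, 7.19 and 9.56 TPM in RPL3L-WT and 29.02, 38.0 and 42.4 TPM in R161W. Its log2 fold change was 1.93 (SE 0.10, adjusted p = 9.54e-13), and the 27 other libraries lay between 6.84 and 15.1 TPM. MANEA, an endomannosidase of the Golgi that trims N-glycans, held 3.90, 3.23 and 5.98 TPM in RPL3L-WT and 14.3, 21.5 and 19.1 TPM in R161W (log2 fold change 1.70, SE 0.12, adjusted p = 2.67e-10).

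INHBE and ACTA2 completed the set of named genes above all other libraries. INHBE, which encodes the activin E subunit, a secreted TGF-beta family protein known from liver, held 0.705, 1.38 and 1.52 TPM in RPL3L-WT and 6.32, 8.65 and 7.96 TPM in R161W. Its log2 fold change was 1.88 (SE 0.17, adjusted p = 1.99e-08), and the other libraries reached at most 2.45 TPM. ACTA2, smooth muscle actin, held 2.99, 2.71 and 5.25 TPM in RPL3L-WT and 13.5, 13.4 and 15.4 TPM in R161W, a log2 fold change of 1.71 (SE 0.16, BH-adjusted p = 3.06e-08). Its highest value elsewhere was 8.97 TPM. These 5 genes were defined by R161W lying above all other libraries, T189M included, so lower values in T189M follow from that definition. T189M, whose RPL3 was above that of the variants other than R161W, is given for its levels only. T189M held at most 0.290 TPM of MUSK, 9.76 TPM of USP37, 1.65 TPM of INHBE, 5.48 TPM of ACTA2 and 8.00 TPM of MANEA.

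The remaining genes of the higher set were mostly genes of lipid metabolism, described with their lists below, among them SCD, FABP3, FADS2, SREBF1, TM7SF2 and HMGCS1, besides RPL3. FABP3, the fatty acid binding protein of heart and skeletal muscle, held 2.49, 1.86 and 4.01 TPM in RPL3L-WT and 13.3, 14.3 and 12.3 TPM in R161W (log2 fold change 1.89, SE 0.15, adjusted p = 3.04e-09). It remained below shScramble, at 36.8 ± 1.45 TPM (SD, n = 3). SLC1A1, a glutamate and aspartate transporter, held 1.81, 1.30 and 2.49 TPM in RPL3L-WT and 5.25, 8.17 and 8.00 TPM in R161W, a log2 fold change of 1.38. CPZ, a secreted carboxypeptidase, held 2.87, 2.66 and 3.82 TPM in RPL3L-WT and 8.41, 9.28 and 12.1 TPM in R161W, a log2 fold change of 1.31. For all 15 genes, every R161W library was above every RPL3L-WT library, which held for 14.1% of all genes. The naming rule already asked for this separation within each kind, so the count is not separate support.

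The lower set was headed by RGS4, and ID1, ID3 and SMAD7 were also in it. RGS4, a GTPase-activating protein that shortens G protein signals (chr1:163068775-163076802, plus strand), held 56.2, 64.3 and 62.8 TPM in RPL3L-WT and 23.3, 14.9 and 21.5 TPM in R161W, a log2 fold change of -1.52 (SE 0.10, BH-adjusted p = 9.75e-11). ID1 and ID3 encode helix-loop-helix proteins without a DNA-binding domain that are direct targets of BMP signalling. ID1 held 56.9, 53.4 and 61.0 TPM in RPL3L-WT and 23.5, 31.8 and 29.1 TPM in R161W (log2 fold change -1.10, SE 0.08, adjusted p = 1.88e-10). ID3 held 184, 186 and 254 TPM in RPL3L-WT and 88.5, 129.5 and 129.8 TPM in R161W (log2 fold change -1.05, SE 0.08, adjusted p = 8.55e-10). SMAD7, the inhibitory SMAD, held 16.2, 16.2 and 15.4 TPM in RPL3L-WT and 7.18, 9.23 and 8.66 TPM in R161W, a log2 fold change of -0.88. Of the 31 genes tested in the list of TGF-beta, activins and BMP, which holds these 3 and INHBE, 6 were higher and 8 lower. Over all genes 16.4% were higher and 8.98% lower. The list's median was 0.03 (6 higher and 10 lower after median-ratio scaling, median -0.04), so the list had no single direction. The groups did not overlap in RGS4, ID1, ID3 or SMAD7, nor in 14 of the 15 lower genes in all, against 6.17% of all genes. Here too the naming rule largely set the count, since it asked for separation within each kind.

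HMGA2, CCND1 and INSYN2B were the named genes below all other libraries. HMGA2, an architectural chromatin protein of embryonic and tumour cells (chr12:65824131-65966295, plus strand), held 57.5, 57.8 and 72.3 TPM in RPL3L-WT and 29.6, 31.0 and 35.1 TPM in R161W, below all other whole-cell libraries, the lowest of which held 47.3 TPM. Its log2 fold change was -1.03 (SE 0.05, adjusted p = 5.80e-13). CCND1, cyclin D1, held 36.4, 33.8 and 46.2 TPM in RPL3L-WT and 22.1, 20.6 and 23.1 TPM in R161W (log2 fold change -0.86, SE 0.08, adjusted p = 5.61e-08). INSYN2B, named for its link to inhibitory synapses, held 5.58, 5.48 and 7.66 TPM in RPL3L-WT and 2.86, 3.54 and 3.58 TPM in R161W. DLEU2, a non-coding RNA that hosts microRNAs, held 18.1, 14.2 and 19.7 TPM against 9.33, 11.4 and 10.2 TPM. H2AC20, a replication-dependent H2A histone gene, had a log2 fold change of -0.97, and its adjusted p rose to 0.0507 without RPL3L-WT 3, at a log2 fold change of -0.75.

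The rest of the lower set encoded proteins of unlike roles and an antisense transcript. IL24, a cytokine of the IL-10 family, held 13.0, 7.46 and 9.97 TPM in RPL3L-WT and 3.17, 3.61 and 4.69 TPM in R161W, a log2 fold change of -1.27 (SE 0.15, BH-adjusted p = 8.73e-07); against the 6 other variants the difference was -2.78. SERPINB2, plasminogen activator inhibitor 2, held 59.6, 56.5 and 53.5 TPM and 32.7, 24.6 and 25.2 TPM. EDN1, the vasoconstrictor endothelin 1, held 5.16, 5.88 and 5.38 TPM in RPL3L-WT and 3.00, 2.36 and 2.55 TPM in R161W. TXNIP, an arrestin-like protein that restrains glucose uptake and binds thioredoxin, held 70.7, 68.5 and 98.2 TPM in RPL3L-WT and 43.3, 42.5 and 48.0 TPM in R161W (log2 fold change -0.92). Its level in R161W was still far above shScramble, at 1.06 ± 0.218 TPM (SD, n = 3). SCG5, a chaperone of prohormone convertase 2, was the 1 named gene whose groups overlapped when kinds were pooled, with 5.87, 4.20 and 6.33 TPM in RPL3L-WT and 2.13, 4.20 and 2.49 TPM in R161W. FOXC2-AS1, the transcript antisense to the forkhead gene FOXC2, had a log2 fold change of -1.001 and FOXC2 itself -0.59 (adjusted p = 5.65e-06); whether counting used strand is not given in the sources used here, so reads of the 2 genes may not be told apart.

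**Figure D2:**
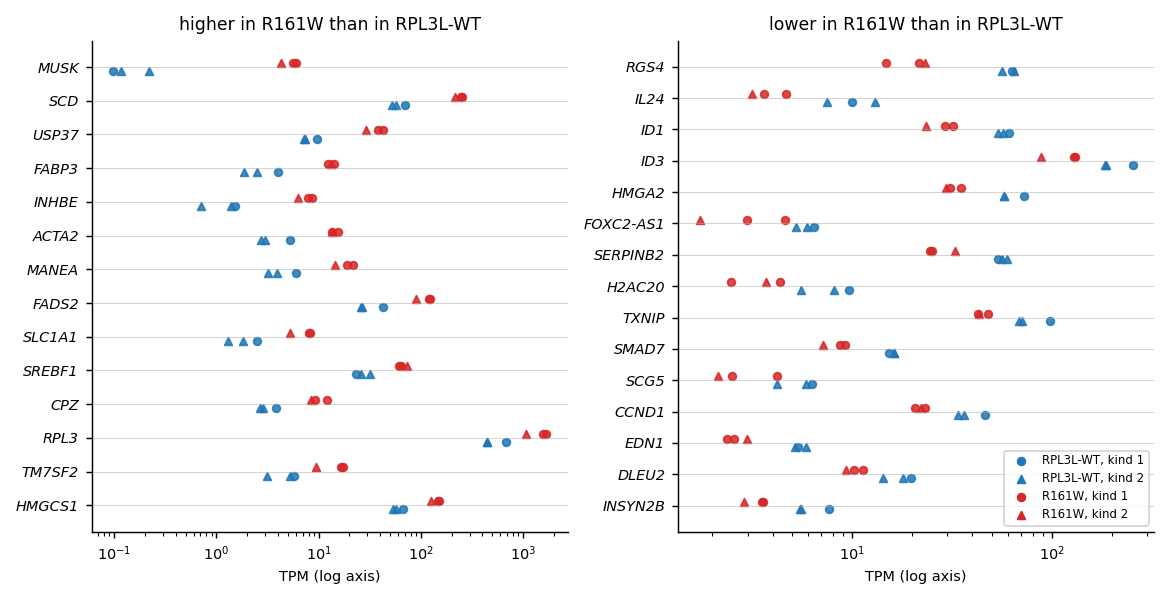
TPM (log axis) of 14 named genes higher in R161W (left) and 15 lower (right) in the 3 RPL3L-WT (blue) and 3 R161W (red) libraries; circles are library kind 1 and triangles kind 2. In 28 of the 29 genes plotted the groups do not overlap, and in SCG5 they do. The naming rule already asked for separation within each kind.

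Nearly all sterol synthesis genes rose. These genes are driven by the SREBP transcription factors, which are held in the endoplasmic reticulum by INSIG proteins when sterol is plentiful and released to the nucleus when it is scarce. Of 21 cholesterol synthesis genes tested, 19 were higher in R161W and 0 lower, with a median log2 difference of 0.71. Over all genes 16.4% were higher and 8.98% lower. All 19 were apart within both kinds, as were 2258 of the 2358 genes called higher among all genes. The median was 0.68 within kind 1 and 0.68 within kind 2. HMGCS1, which makes the HMG-CoA that enters the pathway, held 57.0, 53.2 and 67.0 TPM in RPL3L-WT and 127, 147 and 149 TPM in R161W, a log2 fold change of 1.19 (SE 0.06, BH-adjusted p = 7.05e-13). MVK, mevalonate kinase, held 11.5, 13.8 and 15.0 TPM and 28.04, 35.6 and 36.4 TPM (log2 fold change 1.18). The late-pathway genes TM7SF2, a sterol reductase, and DHCR7, the enzyme of the last step, had log2 fold changes of 1.23 and 1.10. TM7SF2 held 5.29, 3.10 and 5.798 TPM in RPL3L-WT and 9.43, 17.2 and 16.5 TPM in R161W.

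The sensing, uptake and export genes of the same system leaned the same way. Of 18 tested, 11 were higher and 1 lower, with a median of 0.40, against 16.4% higher and 8.98% lower over all genes. SREBF1, which encodes SREBP-1, held 25.7, 32.0 and 23.2 TPM in RPL3L-WT and 73.4, 61.5 and 64.5 TPM in R161W (log2 fold change 1.37, SE 0.13, adjusted p = 4.26e-08). INSIG1, the retention factor, held 55.7, 53.8 and 72.2 TPM against 117, 143 and 151 TPM (log2 fold change 1.06). SREBF2, which encodes the SREBP that drives the cholesterol genes, had a smaller log2 fold change of 0.63 (adjusted p = 2.34e-06).

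Fatty acid synthesis showed the same direction in most members. Of 18 genes, 11 were higher and 1 lower, with a median of 0.30, against 16.4% higher and 8.98% lower over all genes. SCD, the stearoyl-CoA desaturase that makes monounsaturated fatty acids (chr10:100347124-100364834, plus strand), held 57.5, 52.0 and 69.2 TPM in RPL3L-WT and 214, 246 and 255 TPM in R161W, a log2 fold change of 1.94 (SE 0.07, BH-adjusted p = 9.78e-16). FADS2 and FADS1, the desaturases of polyunsaturated fatty acids, had log2 fold changes of 1.68 and 1.05. FADS2 held 26.3, 26.8 and 42.7 TPM against 90.6, 120.3 and 122.8 TPM. FASN, fatty acid synthase, had a log2 fold change of 1.001 (SE 0.22, BH-adjusted p = 0.00177), which did not pass within kind 1 alone (0.67, adjusted p = 0.195). ELOVL6, an elongase of saturated fatty acids, was the exception, at -0.52 (SE 0.16, adjusted p = 0.0163). Genes of fatty acid carriage, storage and lipolysis were mixed, with 5 higher and 4 lower of 15 (3 and 5 after median-ratio scaling), among them FABP3 higher and G0S2, an inhibitor of triglyceride lipolysis, lower at -0.71.

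For these genes the R161W line lay between RPL3L-WT and shScramble. In 18 of the 21 cholesterol synthesis genes, all R161W libraries were above all RPL3L-WT libraries and below all shScramble libraries, an order found in 4.76% of all genes. In 15 of the 21, all R161W libraries were above all shRPL3 libraries, against 13.1% of all genes. HMGCS1 stood at 465 ± 11.0 TPM in shScramble, 90.0 ± 4.06 TPM in shRPL3, 59.1 ± 7.14 TPM in RPL3L-WT and 141 ± 12.4 TPM in R161W (SD, n = 3 each). SCD showed the same order, with 707 ± 12.9, 125 ± 4.25, 59.6 ± 8.76 and 238 ± 21.3 TPM. These orders and means use TPM without the kind term. All shScramble and shRPL3 libraries were kind 1, while R161W and RPL3L-WT held both kinds. The median log2 difference of the 21 genes from shScramble was -1.02 in R161W and -1.75 in RPL3L-WT, 2 comparisons that share the shScramble libraries. SREBF1 was different: at 66.5 ± 6.21 TPM in R161W and 59.6 ± 9.85 TPM in shScramble it was not distinguishable between these groups (log2 difference 0.07, adjusted p = 0.707). In T189M, HMGCS1 held 86.1, 77.1 and 91.6 TPM and SCD 98.0, 93.8 and 108 TPM. For both genes every T189M library was below every R161W library and above every RPL3L-WT library.

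**Figure D3:**
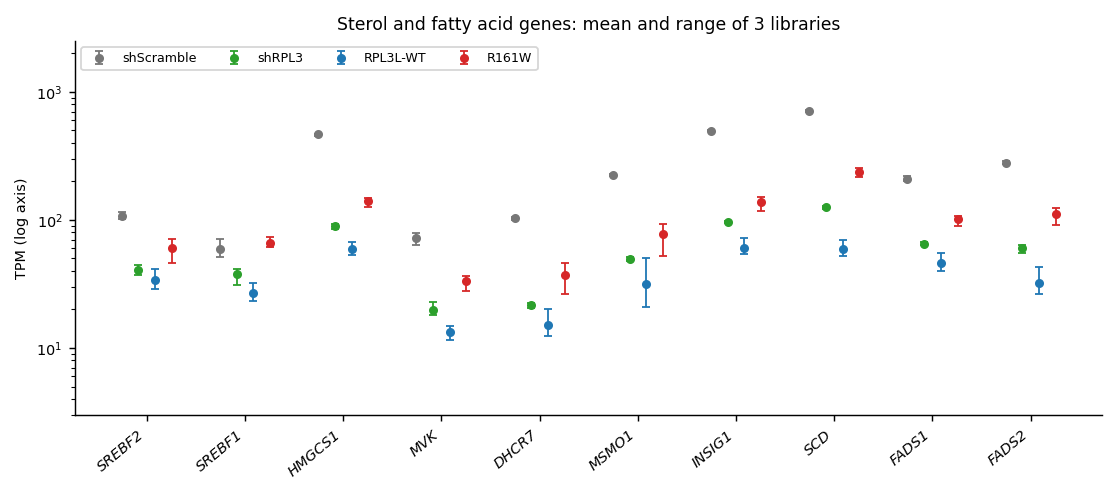
Mean TPM (log axis) of 10 sterol and fatty acid genes in shScramble, shRPL3, RPL3L-WT and R161W, with bars from the lowest to the highest of 3 libraries. R161W lies above RPL3L-WT in all 10 genes and, for SCD, at 238 TPM against 707 TPM in shScramble. The 10 genes were chosen with earlier results of these data known and are only part of their lists.

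The promoters of these lipid genes were searched for sequences known from SREBP target genes, since the genes moved together. RefSeq promoter entries (GRCh38.p14) were found for 48 of the 57 lipid genes tested, of which 33 were higher in R161W, and the 250 bases before each gene start were read on both strands. The string TCACCCCAC, a core form of the sterol regulatory element, was present in 2 of the 48, SREBF2 and MID1IP1, and in 0.348% of 27305 promoters. SREBF2 and MID1IP1, a gene whose protein promotes assembly of acetyl-CoA carboxylase, are shown with the match in capitals and 30 bases on each side. They lie at chr22:41832942-41833010 and chrX:38801389-38801457, both on the plus strand.
SREBF2: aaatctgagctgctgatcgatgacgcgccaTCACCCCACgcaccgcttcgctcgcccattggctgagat
MID1IP1: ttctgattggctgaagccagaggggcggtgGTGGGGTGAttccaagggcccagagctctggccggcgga
The MID1IP1 match is the reverse complement. MID1IP1 held 11.2, 12.1 and 12.9 TPM in RPL3L-WT and 17.7, 17.7 and 18.8 TPM in R161W (log2 fold change 0.53), and SREBF2 held 28.99, 32.5 and 41.2 TPM against 45.7, 63.1 and 71.5 TPM. Looser strings that overlap this one were also searched: TCACNCCAC was found in the same 2 genes (0.875% of all promoters), and TCACCCC in 5 of the 48 (4.55%). CCACNCCA was found in 6 (6.51% of all promoters), GTGATTGG in 3 (1.63%) and the E-box CACGTG in 4 (6.49%). CCACNCCA can overlap TCACNCCAC, and a match describes letters only, not a site.

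Ribosome genes other than RPL3 tended to be slightly lower in R161W than in RPL3L-WT. Of 47 large-subunit ribosomal protein genes, 25 were lower and RPL3 was the 1 higher, with a median log2 difference of -0.12. Of 32 small-subunit genes, 16 were lower and 0 higher, with a median of -0.13. Over all genes 8.98% were lower and 16.4% higher. From shScramble these 2 lists differed by medians of 0.10 and 0.06 in R161W and of 0.24 and 0.19 in RPL3L-WT. RPL8 had a log2 fold change of -0.29 (SE 0.05, BH-adjusted p = 1.08e-04), with 3521, 3307 and 4015 TPM in RPL3L-WT and 2760.3, 3476 and 3404 TPM in R161W, so that the pooled groups overlapped, and with no kind term it did not pass (-0.17, adjusted p = 0.325). RPS2 held 4002, 4273 and 4217 TPM against 3461, 3709.9 and 3486 TPM and did not overlap (log2 fold change -0.26). Most of these calls rest on the kind term. With no kind term 3 of the large-subunit and 2 of the small-subunit genes were lower, against 4.15% of all genes. The large-subunit median was then 0.01. Ribosomal protein genes have many processed pseudogenes that share their sequence, so their levels are uncertain.

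Many genes that build ribosomes were lower in R161W than in RPL3L-WT. Of 60 genes of 60S assembly, 31 were lower and 1 higher (median -0.19). Of 59 genes of 40S assembly, 28 were lower and 0 higher (median -0.18). Of 27 genes of RNA polymerase I and the snoRNPs, 15 were lower and 0 higher (median -0.20). The shares over all genes were 8.98% lower and 16.4% higher. Median differences of the 3 lists from shScramble were 0.09, 0.11 and 0.09 in R161W and 0.27, 0.27 and 0.21 in RPL3L-WT. By these medians R161W lay nearer to shScramble than RPL3L-WT did, and not below it. RRS1, an assembly factor of the 5S RNP, held 77.9, 76.5 and 70.5 TPM in RPL3L-WT and 48.5, 46.4 and 44.95 TPM in R161W, a log2 fold change of -0.67 (SE 0.06, BH-adjusted p = 4.92e-09). NPM1, nucleophosmin, held 2365, 2351 and 2295 TPM against 1897, 1696 and 1674 TPM (log2 fold change -0.39). NOP56, a core protein of box C/D snoRNPs, had a log2 fold change of -0.37 (adjusted p = 1.17e-07). With no kind term 16, 12 and 8 genes of the 3 lists were lower, against 4.15% of all genes, and the medians were -0.17, -0.18 and -0.18.

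Host genes of snoRNAs and translation factors also tended lower than in RPL3L-WT. Of 24 snoRNA host genes 14 were lower and 1 higher, with a median of -0.29, against 8.98% lower and 16.4% higher over all genes. From shScramble their median difference was 0.09 in R161W and 0.40 in RPL3L-WT. SNHG8 held 85.7, 83.0 and 89.0 TPM in RPL3L-WT and 48.7, 42.4 and 57.0 TPM in R161W (log2 fold change -0.81, SE 0.10, adjusted p = 1.87e-06), and SNHG1 had a log2 fold change of -0.48 (adjusted p = 3.43e-11). Of 41 translation initiation and elongation genes 24 were lower and 1 higher; EIF4A1, the helicase of the cap-binding complex, held 2618, 2498 and 2315 TPM against 1991, 1766 and 1799.8 TPM (log2 fold change -0.38). Of 77 mitochondrial ribosomal protein genes 30 were lower and 2 higher (median -0.13). The number of snoRNA host genes lower was 5 with no kind term, that of translation factors 12 and that of mitochondrial ribosomal proteins 7. In that fit 4.15% of all genes were lower. From shScramble, translation factors had a median difference of -0.02 in R161W and 0.09 in RPL3L-WT. For mitochondrial ribosomal proteins it was 0.10 and 0.26.

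**Figure D4:**
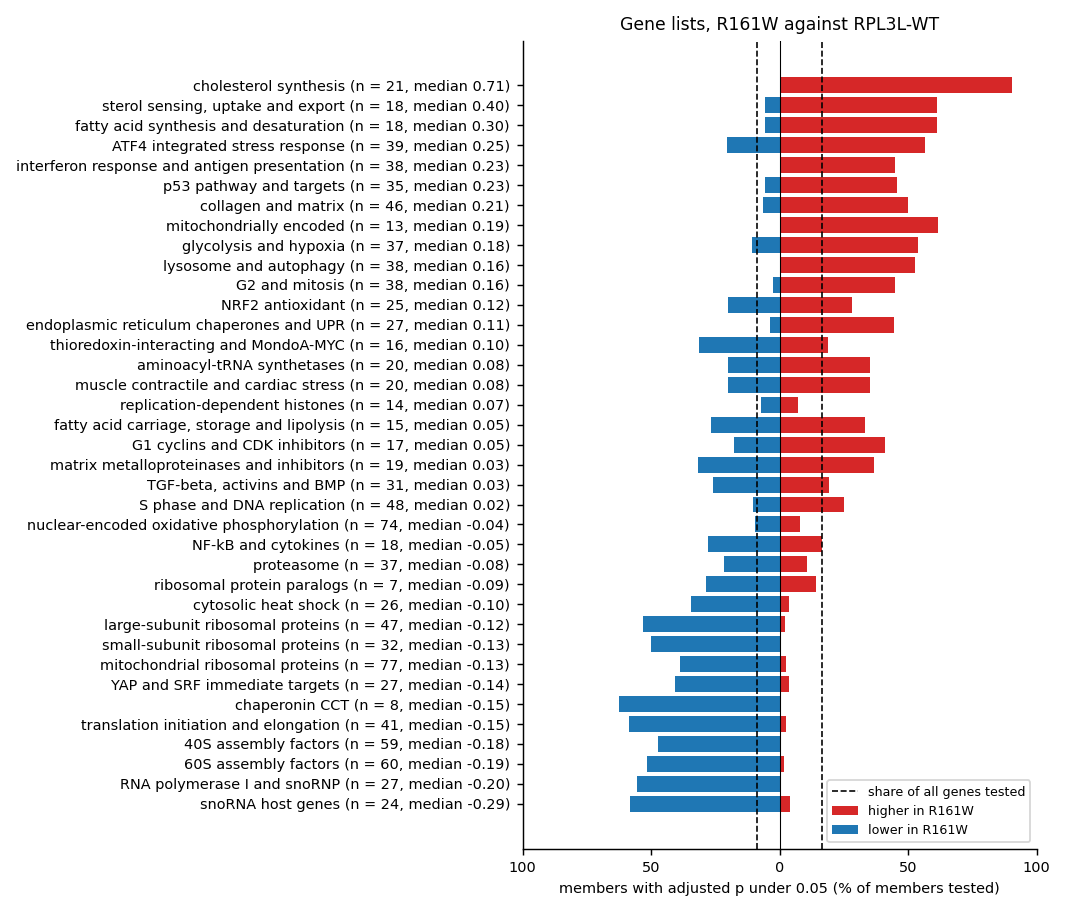
Share of tested members of each gene list that were higher (red, right) or lower (blue, left) in R161W than in RPL3L-WT at an adjusted p under 0.05, ordered by median log2 difference; dashed lines mark the shares over all genes, 16.4 and 8.98%. Cholesterol synthesis is at the top with 19 of 21 members higher, and snoRNA host genes are at the bottom with 14 of 24 lower.

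Among 46 collagen and matrix genes, 23 were higher and 3 lower, with a median of 0.21, and 20 did not pass the threshold. Over all genes 16.4% were higher and 8.98% lower. The counts were 18 higher and 8 lower after median-ratio scaling, where 11.1% of all genes were higher and 14.8% lower. With no kind term they were 17 and 1, against 12.9 and 4.15% of all genes. COL3A1, a fibrillar collagen, held 112, 114 and 173 TPM in RPL3L-WT and 247, 337 and 358 TPM in R161W, a log2 fold change of 1.08 (SE 0.06, BH-adjusted p = 9.54e-13). COL5A1 held 28.5, 26.8 and 32.4 TPM against 50.4, 69.2 and 69.8 TPM (log2 fold change 0.95), and LAMA5, a laminin chain of basement membranes, had a log2 fold change of 1.16 (adjusted p = 3.34e-04), with an adjusted p of 0.0504 within kind 2 alone. The groups did not overlap for either collagen gene. COL3A1 is also a fibroblast marker; of the 12 fibroblast markers 6 were higher and 2 lower, and the part of these markers in the matrix result was not tested. Matrix metalloproteinases and their inhibitors were mixed, 7 higher and 6 lower of 19.

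Immediate targets of YAP and SRF were in part lower than in RPL3L-WT, with 11 lower and 1 higher of 27 and a median of -0.14. Over all genes 8.98% were lower and 16.4% higher. FOSL1, a partner of JUN in AP-1, held 179, 194 and 124 TPM in RPL3L-WT and 104, 73.6 and 79.3 TPM in R161W (log2 fold change -0.76, SE 0.06, adjusted p = 2.88e-09). IER3, an early response gene, held 275, 269 and 259.8 TPM against 156, 161.02 and 168 TPM (log2 fold change -0.74), and JUN itself had a log2 fold change of -0.62. CCN2, a matricellular target of YAP, had a log2 fold change of -0.58. Against the other variants 20 of the 27 were lower and 3 higher, in a comparison where 19.8% of all genes were lower and 26.9% higher. Genes of muscle contraction and cardiac stress were mixed, with 7 higher, among them ACTA2, and 4 lower, among them ANKRD1 (log2 fold change -0.67), of 20 (5 and 6 after median-ratio scaling).

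Stress-response lists contained calls in both directions. Of 39 ATF4 target genes 22 were higher and 8 lower, with a median of 0.25, against 16.4% higher and 8.98% lower over all genes. PSAT1, an enzyme of serine synthesis, held 28.3, 28.5 and 42.3 TPM in RPL3L-WT and 58.4, 79.4 and 79.4 TPM in R161W, a log2 fold change of 0.95 (SE 0.04, BH-adjusted p = 8.58e-14). DDIT4, an inhibitor of mTORC1, had a log2 fold change of 0.82. Of 35 genes of the p53 pathway 16 were higher and 2 lower (median 0.23), including FDXR at 0.64 and CDKN1A, the cell cycle inhibitor p21, at 0.48 (adjusted p = 5.52e-07). Of 27 endoplasmic reticulum chaperone and unfolded protein genes 12 were higher and 1 lower (median 0.11), with P4HB, a disulfide isomerase, at 0.44 (adjusted p = 3.37e-08). Of 26 cytosolic heat shock genes 9 were lower and 1 higher; HSPA1A had a log2 fold change of -0.39 against RPL3L-WT and 0.70 against the other variants, so that its direction depended on the reference. Against RPL3L-WT its call was lost within kind 1 alone (-0.35, adjusted p = 0.0824) and within kind 2 alone (-0.37, adjusted p = 0.0635). HSPA1A and HSPA1B are nearly identical in sequence, and the split of reads between them is uncertain.

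Among genes of the cell cycle, those of G2 and mitosis leaned higher, while those of S phase and G1 were mixed. Of 38 genes of G2 and mitosis 17 were higher and 1 lower (median 0.16), against 16.4% higher and 8.98% lower over all genes. Of 48 S phase genes 12 were higher and 5 lower, with a median of 0.02. After median-ratio scaling 8 of the S phase genes were higher and 13 lower, with a median of -0.05. With that scaling 11.1% of all genes were higher and 14.8% lower. KIF20A, a kinesin of cytokinesis, held 89.7, 91.4 and 109 TPM in RPL3L-WT and 119, 122 and 128 TPM in R161W (log2 fold change 0.31). Among 17 genes of G1 cyclins and their inhibitors 7 were higher and 3 lower (4 and 5 after median-ratio scaling), with CCND1 lower and CDKN1A higher. With no kind term 9 of the G2 and mitosis genes were higher and 0 lower, against 12.9 and 4.15% of all genes.

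Nuclear rRNA counts gave a separate readout of ribosome production in these lines. The 47S precursor is cut at the 5′ external spacer (5′ETS) and at the internal spacers ITS1 and ITS2 on the way to 18S, 5.8S and 28S rRNA, so spacer counts are read relative to mature rRNA. The 4 nuclear libraries of R161W and RPL3L-WT held 12340594 and 14698375 counts (RPL3L-WT) and 11401685 and 9588340 counts (R161W). For each 100 counts of 28S, 5′ETS held 2.47 and 2.56 counts in RPL3L-WT and 3.66 and 3.51 in R161W, a ratio of means of 1.42. ITS1 per 100 counts of 18S was 4.05 and 3.48 in RPL3L-WT and 6.19 and 5.75 in R161W, a ratio of 1.59. ITS2 per 100 counts of 28S was 3.00 and 3.06 against 3.65 and 3.55, a ratio of 1.19. The libraries of the groups did not overlap in these 3 ratios, and 18S per 100 counts of 28S did overlap (40.5 and 40.6 against 39.1 and 41.3). With 2 libraries a group an exact permutation test cannot go below p = 0.333, so no test is given. As shares of all counts, 5′ETS took 1.67% (95% Wilson interval 1.66 to 1.68) and 1.73% (1.72 to 1.74) in RPL3L-WT and 2.45% (2.44 to 2.46) and 2.32% (2.31 to 2.33) in R161W; the intervals cover counting error only, and the spread between libraries of a group was larger than these. In shRPL3, with no RPL3L, 5′ETS was at 4.32 and 4.15 per 100 counts of 28S. There ITS1 per 100 counts of 18S was 6.04 and 5.77, and ITS2 per 100 counts of 28S was 3.66 and 3.68, both close to R161W. Among the other variants 5′ETS was at 5.78 and 5.60 in G27D, 6.02 and 4.95 in D308N and 2.43 and 2.79 in T189M. The ITS1 ratio was 6.52 and 7.71 in G27D, 8.30 and 7.50 in D308N and 4.07 and 4.31 in T189M. The ITS2 ratio was 4.35 and 4.52 in G27D and 5.41 and 4.89 in D308N. In T189M it was 3.34 and 3.76, which overlapped R161W.

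**Figure D5:**
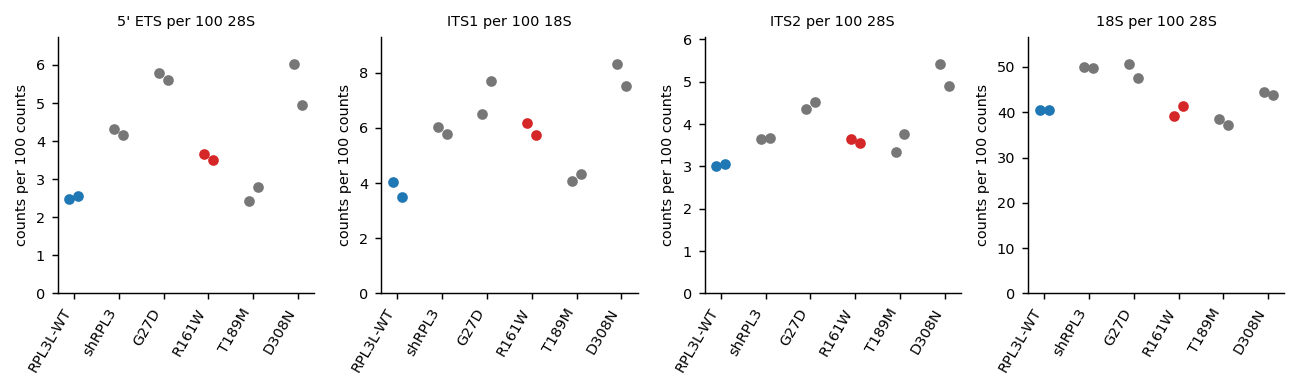
Counts of 5′ETS and ITS2 per 100 counts of 28S, of ITS1 per 100 counts of 18S, and of 18S per 100 counts of 28S in each of the 12 nuclear libraries (2 points per group, axes from 0). R161W (red) lies above RPL3L-WT (blue) in the 3 spacer ratios, at 3.66 and 3.51 against 2.47 and 2.56 for 5′ETS, and overlaps it in 18S per 100 counts of 28S.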

How the data were processed

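PolyA RNA from whole cells and unselected nuclear RNA of AC16 lines were sequenced, per the labels. The authors deposited TPM per gene and, for nuclear RNA, counts per rRNA region. Per the submitters' processing notes, bcl2fastq 2.19 was used along with kallisto, Bowtie and bedtools, with no roles stated; annotation and build: not given in the sources used here. Of 60612 entries in the TPM table, 6 were construct sequences and stayed out of the tests.

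The fit used log2(TPM + 1), hence a pseudocount of 1. In limma 3.58.1 under R 4.3.3 (lmFit, contrasts.fit and eBayes, trend and robust options on), all 30 whole-cell libraries entered by group with library kind as a term, so all groups share 1 estimate of the spread. Tests were two-sided, adjusted by Benjamini-Hochberg over 14397 genes, at a threshold of 0.05. Library kinds came from the widest gap on the first principal component of 449 pseudogenes (16.4, next 1.65). The code was tested on simulated data. Nuclear ratios were taken within each library.

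Named genes passed the threshold, reached 5 TPM on average in whichever group was higher, were apart within both kinds and had a symbol other than a clone, locus, small RNA, pseudogene or readthrough name; the first 15 each way by log2 fold change were taken, and 3 genes that the rule names are not reported here. Up to 4 members of each list (largest change among those called), the construct genes and cell type markers were added. Outside this rule, CDKN1A as a p53 target, SREBF2, MID1IP1, ELOVL6 and FOXC2 were chosen after their values were seen, as were the promoter strings. The comparison, its genes and the 42 lists (1264 symbols, 2 absent from the table) were chosen with earlier results of these data known. Alternatives changed the kind term, pseudocount, scaling, filter, libraries and replicate block. Other software: Python 3.11.15, numpy 2.4.6, pandas 2.3.3, scipy 1.17.1, biopython 1.88, matplotlib 3.10.9. Promoters came from RefSeq (GRCh38.p14).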

Additional observations from a re-analysis of the deposited data

Results flagged for a closer look

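In 16 genes the difference between R161W and RPL3L-WT itself differed between the 2 library kinds by the test of that difference in limma (0.111% of the 14397 tested). Several were miRNA or pseudogene entries with a value in 1 of the 6 libraries and 0 in the others. Of the protein-coding genes among them, MCCC1, a subunit of the leucine-degrading methylcrotonyl-CoA carboxylase, held 11.99 and 11.8 TPM in RPL3L-WT 1 and 2 against 23.6 TPM in R161W 1, and 16.5 TPM in RPL3L-WT 3 against 15.4 and 17.7 TPM in R161W 2 and 3 (adjusted p of the difference = 0.00166). SLC6A8, the creatine transporter, had a log2 difference of 0.54 within kind 1 and -0.48 within kind 2 (adjusted p of the difference = 0.0424). These 2 genes were chosen after their values were seen.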

How the results depend on the processing

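Counts of genes higher and lower in R161W than in RPL3L-WT were 2358 and 1293. They were within 1.5 times of these with a pseudocount of 0.1, no filter, a mean TPM of at least 5, only the 12 libraries of the 4 groups with both kinds, and without shRPL3 3 (added after seeing the data). Genes lower were 598 with no kind term and 2136 after median-ratio scaling. Smaller fits gave fewer calls: 719 higher and 424 lower from only the 6 libraries with the kind term, 1021 and 720 within kind 1, 1303 and 651 within kind 2, and 10 and 0 from only the 6 libraries with no kind term, where limma had 2150 genes at an unadjusted p under 0.05. Leaving out each library gave 1720 to 2106 higher and 963 to 1216 lower. Against the other variants, 3879 and 2856 genes became 2567 higher with no kind term, and 3045 to 3368 higher and 2233 to 2532 lower without each R161W library. RPL3 against shScramble turned from 0.06 to -0.15 with no kind term, neither past the threshold; leaving out each library gave 0.03 to 0.09. With no kind term the differences of NFE2L1 (-0.0361) and MT-ATP8 (-0.24) reversed, with all 30 libraries and with only the 6. The cause of these changes was not tested. All 30 named genes stayed past the threshold with no kind term and after median-ratio scaling; 25 did not with only the 6 libraries and no kind term. With the replicate number as a block and the kind term, 2350 genes were higher and 1298 lower; same-numbered residuals correlated at -0.15, 0.08 and -0.14, so the numbers were not taken as pairs. TPM keep no depth, so limits of detection cannot be given.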

Other observations

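Further groups of genes leaned higher in R161W than in RPL3L-WT, where 16.4% of all genes were higher and 8.98% lower. Of 38 genes of interferon response and antigen presentation 17 were higher and 0 lower, with a median log2 difference of 0.23; PARP9, a partner in interferon signalling, held 4.28, 4.53 and 4.81 TPM in RPL3L-WT and 7.30, 8.13 and 7.57 TPM in R161W (log2 fold change 0.64, adjusted p = 2.62e-06 in limma). Of 37 genes of glycolysis and hypoxia 20 were higher and 4 lower (median 0.18). P4HA1, a collagen prolyl hydroxylase induced by hypoxia, held 62.8, 58.3 and 85.7 TPM in RPL3L-WT and 111, 135 and 136 TPM in R161W (log2 fold change 0.77). CA9, a carbonic anhydrase, had a log2 fold change of 1.42 at low levels, 0.28, 1.25 and 0.855 TPM against 2.187, 5.87 and 6.04 TPM. Its call was lost within kind 2 alone (0.91, adjusted p = 0.0819), and its mean over the 6 libraries reached 1 TPM only through R161W. Of 38 lysosome and autophagy genes 20 were higher and 0 lower (median 0.16), including BNIP3, a mitophagy receptor, at 0.79 (adjusted p = 3.24e-13).

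Of 13 genes encoded in the mitochondrial genome 8 were higher and 0 lower (median 0.19), but with no kind term 0 were higher and the median was -0.07. Over all genes 16.4% were higher and 8.98% lower, and with no kind term 12.9% were higher. Of 74 nuclear-encoded genes of oxidative phosphorylation 6 were higher and 7 lower (median -0.04), and after median-ratio scaling 0 were higher and 20 lower (median -0.11), where 14.8% of all genes were lower. Of 18 genes tested in the list of NF-kB and cytokines, 3 were higher and 5 lower (1 and 5 after median-ratio scaling). IL32, a cytokine, was among the 3 higher. It held 32.3, 25.4 and 19.0 TPM in RPL3L-WT and 54.3, 36.6 and 39.1 TPM in R161W (log2 fold change 0.89, adjusted p = 2.70e-06 in limma).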
